A study of Caenorhabditis elegans with 14 samples.

Results

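Small RNA bound to the Argonaute NRDE-3 was compared with total small RNA in Caenorhabditis elegans embryos that carried an eri-1 mutation and had received ultraviolet light (UV). The comparison used 2 of the 14 libraries of the series, 1 on each side, chosen by the labels alone. Both libraries came from eri-1(mg366);3xflag::gfp::nrde-3 in an N2 background, grown at 20 °C, given UV at 50 mJ/cm2 as bleached embryos and left for 2 h to recover, so the mutation, the tagged NRDE-3 and the irradiation were shared, and the libraries differed in the pull-down and in how the RNA was extracted. The bound library was made from embryo lysate with the anti-FLAG M2 antibody, and the total library from RNA extracted directly with TRIzol. The same pair of libraries from embryos of this genotype kept at 20 °C without UV served for comparison. In both cases RNA of 20 to 30 nt was cut from a gel and treated with a phosphatase and a kinase. This treatment admits siRNAs with a 5′ triphosphate as well as fragments of longer RNAs. Another bound and total pair, from N2 after cold shock and 2 h of recovery, is cited as a contrast. Its bound library carried tagged NRDE-3, and the labels of its total library name no transgene. That pair had no UV and no eri-1 mutation. The growth protocol also mentions first-stage larvae placed on plates without food. The labels do not say how these relate to the embryos, and they name neither the promoter nor the copy number of the transgene.

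NRDE-3 is a somatic Argonaute of the nuclear RNAi pathway. It binds secondary siRNAs, which RNA-dependent RNA polymerases make antisense to a target RNA, and carries them into the nucleus, where NRDE-1, NRDE-2 and NRDE-4 act with it to inhibit transcription. In the wild type most of its cargo comes from targets of the Argonaute ERGO-1, a class of siRNAs that is lost without the exonuclease ERI-1. Antisense ribosomal siRNAs (risiRNAs) are siRNAs antisense to ribosomal RNA (rRNA) that accumulate under stress or when rRNA processing fails, and NRDE-3 is one of their known carriers. The question addressed here is which of the small RNAs present after UV were found with NRDE-3.

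The bound library held 10198787 reads assigned to genes and the total library 9877973. Reads of rRNA made up 89.3% of the bound library and 68.4% of the total library, which left 1086809 and 3123387 other reads. Levels are given per 1000000 assigned reads for rRNA and per 1000000 non-rRNA reads for all other genes (CPM). Ratios are bound over total, and the values in parentheses are 95% intervals of counting error alone, because neither library has a replicate and the reads carry no molecular identifiers. The bound library covered far fewer genes, with 5443 detected against 19940. It also held its reads in larger steps. Among protein-coding genes annotated with 1 transcript, 309 had antisense reads in the bound library, with a median of 84 reads per gene, and 55.3% of them had between 50 and under 200 reads. In the total library 7937 such genes had antisense reads, with a median of 12, and 17.2% lay in that range. The bound library without UV showed the same pattern, with 236 genes and a median of 67. Counting intervals of single genes therefore understate the error of the bound library, and genes at 0 there may lie below what it could sample. A pull-down from animals without the tag was not analysed here, and the share of the bound reads that came with the beads was not tested.

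The labelled strain and stage were checked first. The tagged gene, nrde-3, had 4738 sense reads in the bound library and 1169 in the total library (10.9 to 12.4 times higher, or 4359.6 against 374 CPM), and 224 against 1399 antisense reads (0.460, 0.398 to 0.530). These are fragments and siRNAs of the nrde-3 transcript and do not measure the protein. The mutated eri-1 had 39 antisense reads in the total library and 0 in the bound one, and the mutation cannot be read from them. The mir-35 family, which marks embryos, took 101992 CPM of the total library, whereas the let-7 and lin-4 families of later larvae took 67.6 and 6.08 CPM, let-7 itself counted over a longer gene entry.

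Reads antisense to rRNA, the measure of risiRNAs, were present in both libraries and took a smaller share of the bound one. Summed over the 26S, 18S, 5.8S and 5S rRNAs and the rDNA entries described below, they numbered 31312 in the bound library (3070.2 CPM) and 51529 in the total library (5217 CPM), a ratio of 0.589 (0.580 to 0.597). They were 0.345% (0.341 to 0.349) of the bound rRNA reads and 0.771% (0.765 to 0.778) of the total ones. The direction of the level depended on the scaling, since per 1000000 non-rRNA reads the ratio was 1.75 (1.72 to 1.77), while the antisense share does not use a scaling between the libraries. In bulk RNA of whole embryos, fewer cells that hold an RNA and less of it per cell cannot be told apart.

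The parts of rRNA differed in this. The 26S rRNA of the large ribosomal subunit (rrn-3.1, I:15064838-15068346, build WBcel235) had 17928 antisense reads in the bound library and 30563 in the total library, or 1758 and 3094 CPM, a ratio of 0.568 (0.558 to 0.579). The 18S rRNA of the small subunit is listed as a pair of genes, rrn-1.1 (I:15062083-15063836) with 651 bound and 2340 total antisense reads and rrn-1.2 (I:15069280-15071033) with 557 and 2376. Together they gave a ratio of 0.248 (0.233 to 0.264), from 1208 against 4716 reads. The 5.8S rRNA of the large subunit (rrn-2.1, I:15064301-15064453) had 1110 against 3260 reads, a ratio of 0.330 (0.308 to 0.353). The lowest of these ratios was that of 5S rRNA, which is transcribed apart from the others by RNA polymerase III, where 13 copies together had 371 against 2668 reads, or 0.135 (0.120 to 0.150). All 4 parts were thus lower in the bound library per 1000000 assigned reads, and 26S was the least so. With bound counts divided by 84, the median for a gene read antisense there, the intervals were wider, a choice made after seeing the data. They were 0.493 to 0.649 for 26S, 0.132 to 0.406 for 18S and 0.173 to 0.556 for 5.8S. That of 5.8S overlapped the others, so its place in this order is not settled. No such interval was computed for 5S, which had 371 bound reads, so its place as the lowest is not settled either. Per 1000000 non-rRNA reads 26S was higher in the bound library (1.69, 1.65 to 1.72), 5.8S was at 0.979 (0.913 to 1.05), and 18S and 5S remained lower at 0.736 (0.690 to 0.784) and 0.400 (0.358 to 0.446).

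**Figure D1:**
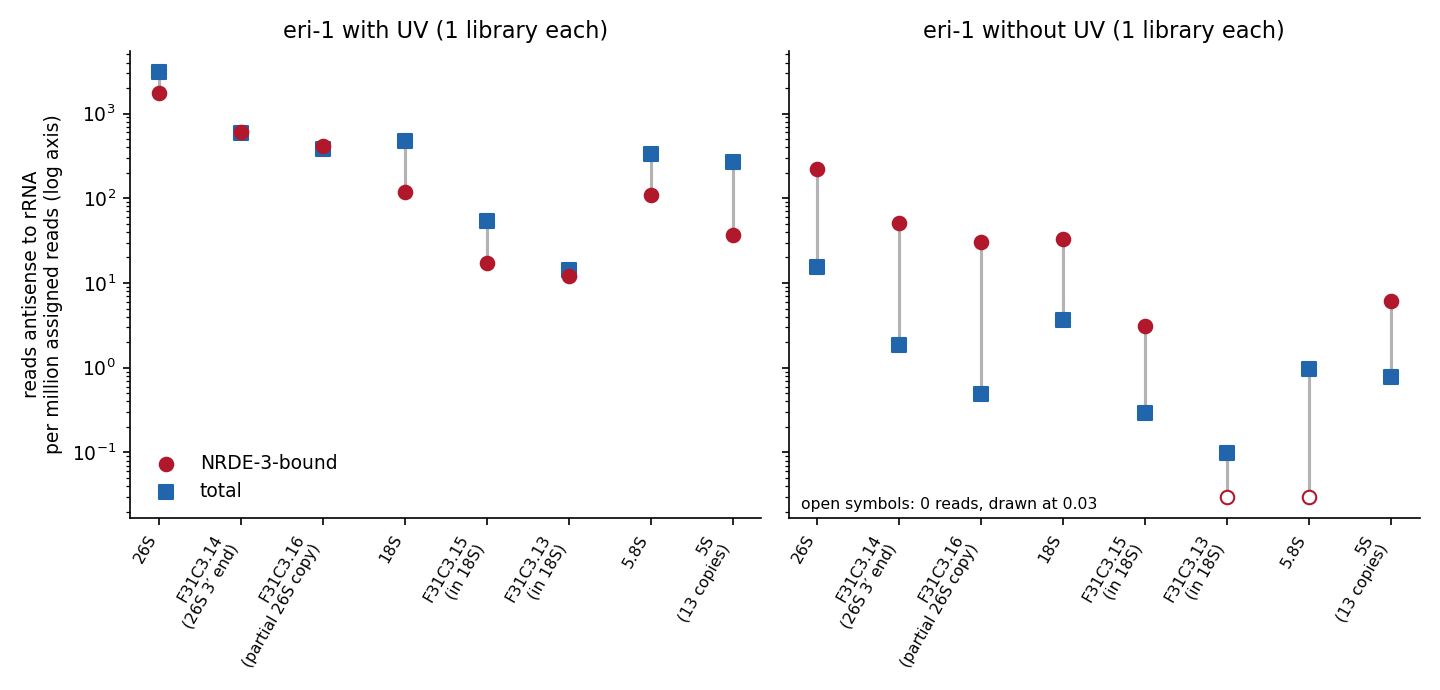
Reads antisense to each rRNA entry, per 1000000 assigned reads on a log axis, in the NRDE-3-bound (red circles) and total (blue squares) libraries of eri-1 with UV (left) and without UV (right), 1 library per point. With UV the bound library lies below the total library at 26S (1758 against 3094), 18S, 5.8S and 5S and beside it at F31C3.14 and F31C3.16, whereas without UV it lies above at 26S (219 against 15.5), 18S and 5S.

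The strand share gave a further order. Antisense reads were 0.254% (0.250 to 0.258) of the 26S reads in the bound library and 0.750% (0.742 to 0.758) in the total library. For 18S the shares were 0.0797% (0.0753 to 0.0843) and 0.338% (0.328 to 0.348), and for 5S 0.287% (0.258 to 0.317) and 0.993% (0.956 to 1.03). The 5.8S rRNA went the other way, at 5.03% (4.75 to 5.33) of the bound and 3.27% (3.16 to 3.38) of the total reads. The intervals of these shares do not allow for the large steps of the bound library. The part of those steps in the 5.8S difference was not tested. Reads of the rRNA strand itself, which are fragments of rRNA, numbered 7045903 against 4044675 for 26S, a ratio of 1.69. For 18S they had a ratio of 1.05, for 5.8S of 0.210 and for 5S of 0.470. The bound library therefore held more 26S fragments and fewer 5.8S and 5S fragments per 1000000 assigned reads, and the shares carry both strands. Per 1000000 non-rRNA reads the 5S fragments were higher in the bound library, at 1.39.

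The 3′ end of 26S rRNA stood apart. The files list 4 short entries on the minus strand of the rDNA, so that their sense reads are antisense to rRNA and their antisense reads are rRNA fragments. F31C3.14 (I:15067668-15068355) covers positions 2831 to 3509 of the 3509 nt of 26S rRNA. It held 6153 reads antisense to rRNA in the bound library and 5880 in the total library, a ratio of 1.01 (0.978 to 1.05), while its rRNA fragments had a ratio of 0.224. Antisense reads were thus 5.55% (5.42 to 5.69) of its reads in the bound library against 1.28% (1.25 to 1.32) in the total library, the reverse of the order over rrn-3.1. F31C3.16 (I:15060861-15061159), which overlaps a partial 26S copy (the RefSeq rRNA pseudogene rrn-3.56) upstream of the first 18S gene, behaved alike, with 4246 against 3771 antisense reads (1.09, 1.04 to 1.14) and shares of 7.20% (6.99 to 7.41) and 1.89% (1.83 to 1.95). The entries within 18S did not. F31C3.15 (I:15063050-15063383, positions 968 to 1301 of rrn-1.1) had 174 against 529 antisense reads (0.319, 0.267 to 0.379), and F31C3.13 (I:15070431-15070580, positions 1152 to 1301 of rrn-1.2) had 122 against 142 (0.832, 0.648 to 1.07). Reads of these stretches also match the longer rRNA genes, and identical copies in the files have near-even counts, so each entry is taken as a sample of the reads from its stretch. With both 26S entries added to rrn-3.1 the 26S ratio was 0.682 (0.672 to 0.693), with 28327 against 40214 reads.

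Among all reads antisense to rRNA, 57.3% in the bound library and 59.3% in the total library lay on rrn-3.1. F31C3.14 took 19.7% of the bound and 11.4% of the total antisense reads, and F31C3.16 13.6% and 7.32%. The shares of 18S were 3.86% and 9.15%, those of 5.8S 3.54% and 6.33%, and those of 5S 1.18% and 5.18%. Compared with the total library, the risiRNAs found with NRDE-3 after UV were thus shifted toward the 3′ end of 26S and away from 18S, 5.8S and 5S, a comparison that no scaling between the libraries enters. The pair without UV had the same order for both 26S entries and 18S, with F31C3.14 at 14.8% bound and 7.82% total, F31C3.16 at 8.88% and 2.06% and 18S at 9.67% and 15.6%. In N2 after cold shock the order was the reverse, at 9.90% and 16.6% for F31C3.14, 4.33% and 8.11% for F31C3.16 and 5.96% and 2.36% for 18S. The total libraries of those pairs held 243 and 296 antisense reads in all.

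**Figure D2:**
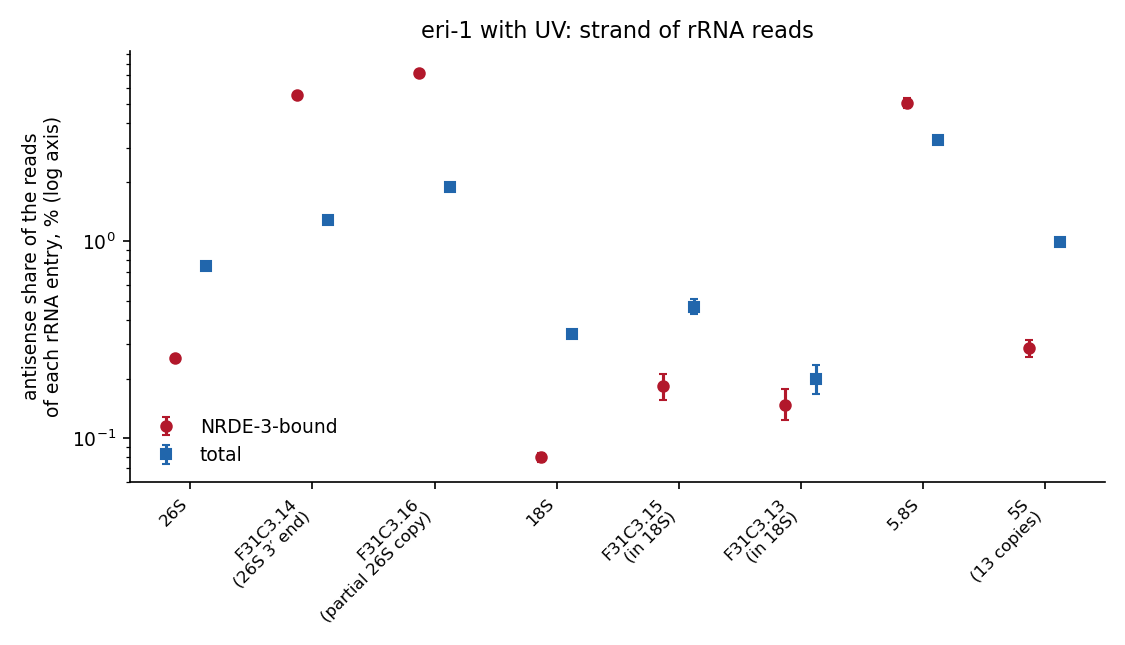
Antisense share of the reads of each rRNA entry in eri-1 with UV, in percent on a log axis, in the NRDE-3-bound (red circles) and total (blue squares) libraries, with exact 95% binomial intervals of counting error where these are wider than the symbols. The bound library lies above the total library at F31C3.14 (5.55% against 1.28%), F31C3.16 and 5.8S and below it at 26S, 18S, F31C3.15 and 5S.

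The 5S copies were counted in more than one way. Of the 16 copies, 13 were read mainly sense, with 0.939% to 2.02% antisense reads over all small RNA libraries, and the 3 copies named rrn-4.2 to rrn-4.4 had 98.4% to 98.7% of their reads counted as antisense. Those 3 held 33717 against 72551 such reads (0.450, 0.444 to 0.456), a ratio near that of the 5S fragments, and 73 against 967 on the other strand (0.0731, 0.0568 to 0.0928). They are left out of all sums of antisense reads above.

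Without UV the order of the libraries was the opposite for 26S, 18S and 5S. Antisense reads of 26S numbered 2268 in the bound library and 159 in the total library, a ratio of 14.2 (12.0 to 16.7). Those of 18S numbered 343 against 38 (8.96, 6.40 to 12.9) and those of 5S 64 against 8 (7.94, 3.80 to 19.2), while 5.8S had 0 against 10. Among protein-coding genes annotated with 1 transcript, the median gene read antisense in the bound library without UV had 67 reads. The 64 reads of 5S are thus about those of 1 such gene, and the intervals do not allow for such steps. The bound-over-total ratio of 26S with UV was 0.0401 times that without UV (0.0339 to 0.0472), or 24.9-fold lower, that of 18S 36.1-fold lower and that of 5S 58.8-fold lower. Each of the 4 libraries stands alone, so this comparison was not tested across cultures of embryos. Both sides were higher with UV, the total side by far more, so the lower ratio lay with the total library. With UV the 26S antisense level was 8.02-fold higher (7.68 to 8.38) in the bound library and 199.8-fold higher (171 to 235) in the total library. At F31C3.14 the bound level was 11.9-fold and the total level 322-fold higher. Per 1000000 non-rRNA reads the 26S ratio without UV was 11.3 (9.64 to 13.4) against 1.69 with UV, so bound exceeded total in both by that scaling and by less with UV. The ratios of 18S were 7.17 without UV and 0.736 with UV, and those of 5S 6.35 and 0.400, still on opposite sides of 1.

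In N2 embryos with tagged NRDE-3 after cold shock, set against total RNA of N2 after cold shock whose labels name no transgene, 26S antisense reads numbered 25802 bound and 177 total, a ratio of 303 (261 to 353), or 27.8 (24.0 to 32.4) per 1000000 non-rRNA reads. Strain and stress both differ from the UV experiment and cannot be told apart. That bound library had rRNA at 51.8% of its reads and 11531 genes detected.

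Outside rRNA, reads of the sense strand of protein-coding genes filled the bound library. They made up 86.3% of its non-rRNA reads against 22.3% in the total library, a ratio of 3.88 (3.87 to 3.89). Antisense reads of protein-coding genes, the strand of secondary siRNAs, made up 3.96% against 22.4%, 5.67-fold lower (5.61 to 5.73). They were 4.39% (4.35 to 4.43) of all protein-coding reads in the bound library and 50.2% (50.1 to 50.3) in the total library. Without UV the same shares were 2.07% and 37.2%. In N2 with tagged NRDE-3 after cold shock they were 96.1% and 12.5%, the opposite order, in libraries that differ in strain and stress. The antisense level changed direction when the libraries were scaled to microRNA reads (1.58), and the strand share, which uses no scaling, did not depend on it. Reads of microRNAs, which bind other Argonautes, fell from 39.5% of the total to 4.42% of the bound non-rRNA reads, 8.94-fold lower (8.86 to 9.02). The piRNAs, which bind the Piwi protein PRG-1, were at 0.784% and 0.0900% (8.71-fold lower). Mitochondrial RNAs were at 5.56% and 0.597% (9.32-fold lower, 9.09 to 9.56).

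Other classes that carry secondary siRNAs were also low on the antisense strand. Transposon antisense reads were 1.20% of the total and 0.0890% of the bound non-rRNA reads, 13.5-fold lower (12.7 to 14.4). Those of lincRNAs were 17.7-fold lower (15.8 to 19.8), those of pseudogenes 6.82-fold lower (6.46 to 7.20) and those of ncRNAs 2.83-fold lower (2.78 to 2.89). The sense strand differed from this in all of them but lincRNAs, with ratios of 3.36 for pseudogenes (3.17 to 3.57), 2.16 for ncRNAs (2.11 to 2.21) and 1.72 for transposons (1.58 to 1.87). Sense reads of lincRNAs were also lower in the bound library, at 0.394 (0.325 to 0.475). The bound lincRNA reads were 127 sense reads on 3 genes and 321 antisense reads on 3 genes. Their intervals do not allow for the large steps of the bound library. The antisense share of transposon reads was 52.3% (50.0 to 54.6) bound and 96.2% (96.0 to 96.4) total, and that of pseudogene reads 35.5% (34.0 to 37.1) and 92.7% (92.4 to 93.0). Fragments of tRNAs were 3.16-fold lower (3.08 to 3.25) and those of spliceosomal snRNAs 2.26-fold lower (2.17 to 2.36), whereas those of snoRNAs, which guide rRNA modification, were near even at 0.897 (0.875 to 0.918). The highest class ratio was that of splice leader sense reads, at 6.30 (5.71 to 6.96), where sls-2.9 held 1158 of 1278 bound reads. Antisense reads of snRNAs were also higher, at 146 against 128 reads (3.28, 2.57 to 4.19). The part of the bound library's steps in these 2 ratios was not tested. Relative to microRNA reads, the antisense reads of pseudogenes and ncRNAs and the sense reads of tRNAs, snRNAs and snoRNAs were higher in the bound library, so that their order against microRNAs is the reverse of their order against all non-rRNA reads, and piRNAs were at 1.03 (0.962 to 1.09). Antisense reads of microRNAs (207 in the total library), tRNAs (534), mitochondrial genes (48) and piRNAs (23) were at 0 in the bound library. Counting error alone would allow up to 2.76 CPM there, but the median gene read antisense in that library had 84 reads (77.3 CPM), so a 0 sets no such limit. At an equal share of the non-rRNA reads, 72.0 bound antisense reads of microRNAs, 186 of tRNAs, 16.7 of mitochondrial genes and 8.00 of piRNAs would stand against these totals.

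**Figure D3:**
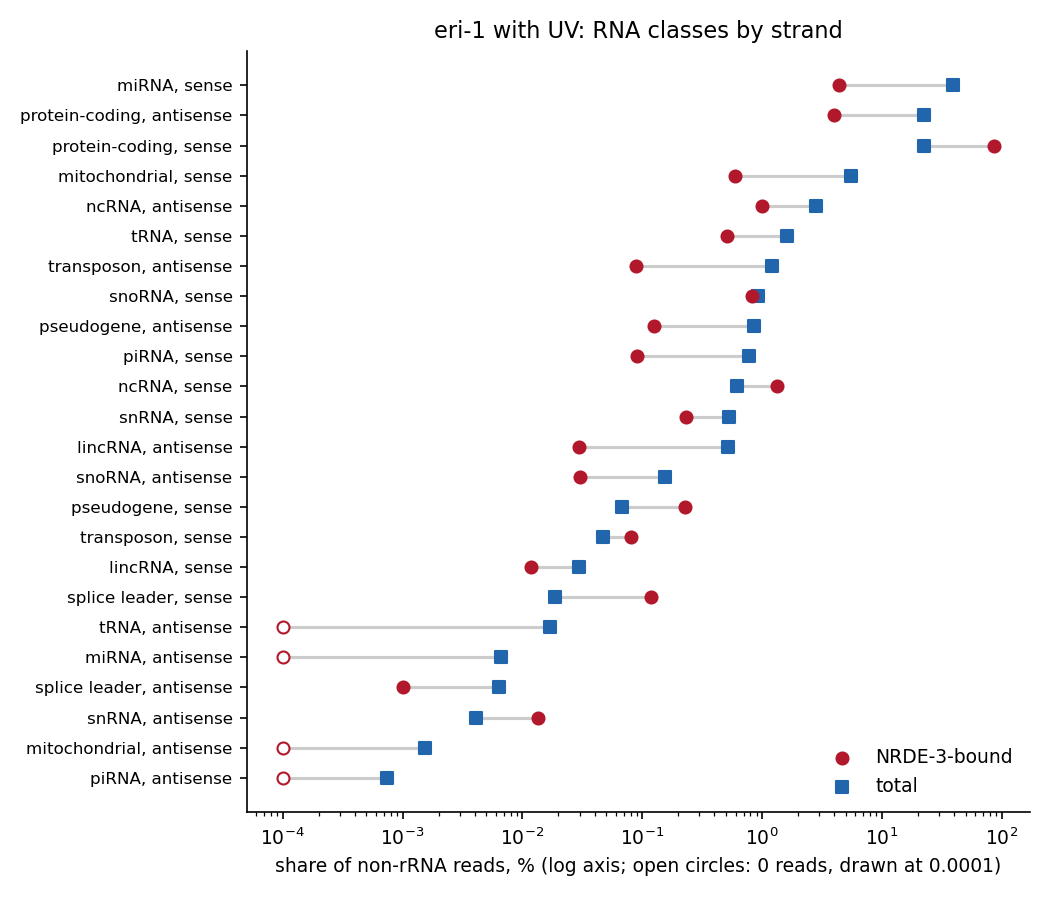
Share of non-rRNA reads by RNA class and strand in eri-1 with UV, in percent on a log axis, in the NRDE-3-bound (red circles) and total (blue squares) libraries. The bound library lies above the total library mainly on sense strands, with protein-coding sense reads at 86.3% against 22.3%, and below it for microRNAs (4.42% against 39.5%) and protein-coding antisense reads (3.96% against 22.4%).

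Gene by gene, few genes had more siRNA reads in the bound library. A gene with at least 50 reads over both libraries was called enriched at a ratio of 2 or more and depleted at 0.5 or less, provided that its interval lay wholly on that side of 1. With 1 library a side this sorts genes by size and is no test. Antisense reads were the measure for protein-coding genes, pseudogenes, ncRNAs, lincRNAs and transposons, and sense reads for the other classes. Of 4195 genes, 296 (7.06%) were enriched and 3636 (86.7%) depleted, and 3251 had 0 reads in the bound library. These counts depend on the large steps of the bound library. With its counts divided by 84, the median for a gene read antisense there, 94 genes were enriched and 142 depleted, a choice made after seeing the data. A gene with an equal share in both libraries would reach 84 bound reads from 242 total reads on, and 713 of the 3636 depleted genes (19.6%) had that many, so that the other 2923 calls say little. Of the 296 enriched genes, 167 had under 50 total reads and passed the minimum through their bound reads. The median log2 ratio, with 0.5 reads added to each count, was −5.79. Of 3166 protein-coding genes measured on the antisense strand, 223 (7.04%) were enriched and 2850 (90.0%) depleted, 418 of the latter with 242 or more total reads. The 223 enriched genes had a median of 108 reads in the bound library and 42 in the total library, 129 of them passed the minimum through their bound reads, and 192 lay between 50 and under 200 bound reads. Of the 221 that matched the annotation, 82 (37.1%) overlapped a gene on the opposite strand, against 33.2% of all those tested. Bound reads on the same strand without UV were found for 32 of the 223 (14.3%), against 7.68% of all those tested. The enriched set was thus mostly not seen in the other eri-1 pull-down, at the depth of that library.

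**Figure D4:**
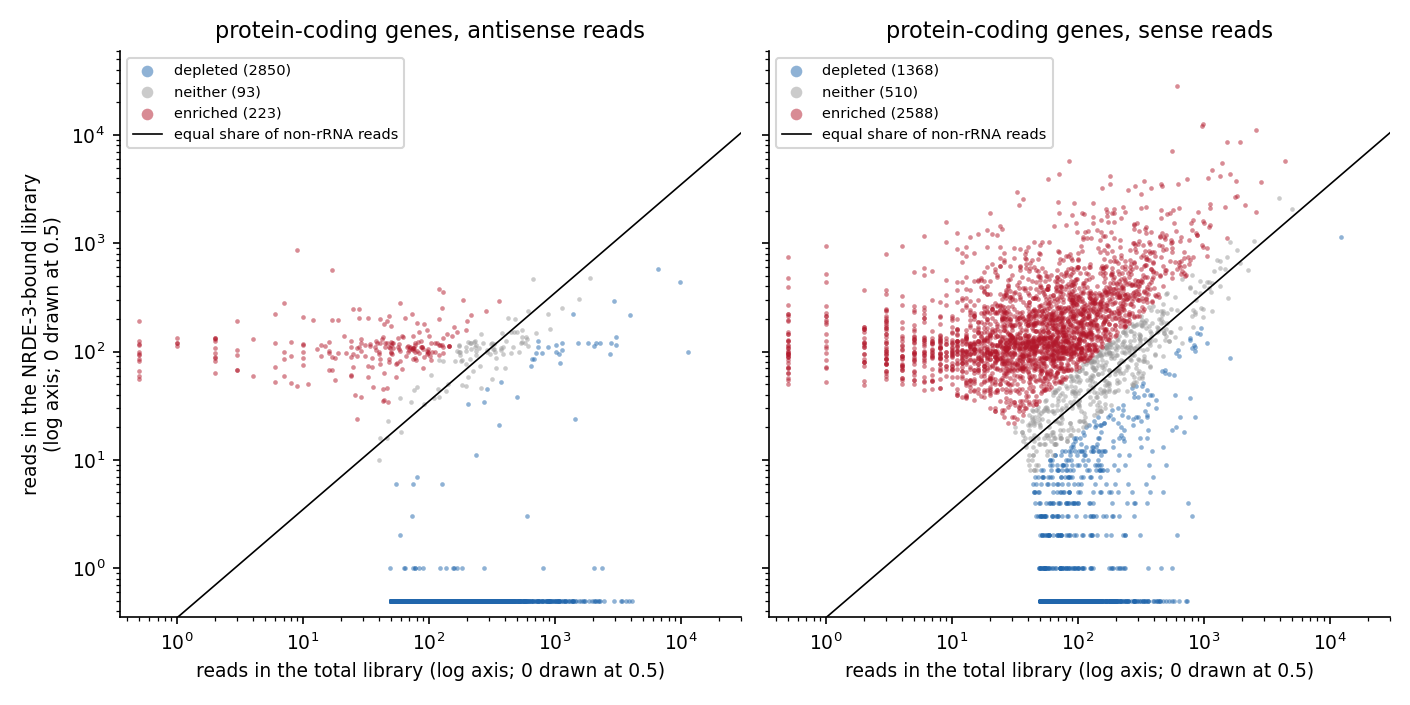
Reads per protein-coding gene in the total (horizontal) and NRDE-3-bound (vertical) libraries of eri-1 with UV, both on log axes, for antisense (left) and sense (right) reads of genes with at least 50 reads over both libraries, with the line of equal share of non-rRNA reads. Most genes lie at 0 bound antisense reads (2850 depleted, 223 enriched), those above 0 cluster near 100 reads whatever their total level, and on the sense strand 2588 genes were enriched.

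The genes at the top of the enriched set were named by the interval bound nearest 1 among genes with 200 or more reads. On the strand measured, each of the 12 had at most 79 total reads and passed that minimum through its bound reads. The part of the bound library's large steps in their ratios was not tested. The ncRNA T28B11.8 (V:10724632-10724977) had 203 antisense reads bound and 0 total, and it overlaps the ncRNA T28B11.25 on the other strand. The muscle LIM-domain gene alp-1 (IV:8852494-8862246) had 874 against 9 antisense reads, a ratio of 279 (146 to 612). It overlaps C09G9.1 and T11B7.5 on the opposite strand, and C09G9.1 itself had 293 against 29 sense reads. Without UV alp-1 had 446 bound and 2 total antisense reads. F46H5.2, which overlaps grd-7 on the other strand, had 562 against 17 (ratio between 58.8 and 164), and 900 against 4 without UV. These last 2 genes were thus high in both eri-1 pull-downs.

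Others had at most 1 antisense read in the bound library without UV. The gene ist-1, a relative of insulin receptor substrates, had 280 against 7 antisense reads (115, 55.1 to 289), with no antisense read in the bound or the total library without UV. The succinate dehydrogenase subunit gene sdha-1 had 222 against 6 (106, 48.1 to 293). The RAD-51 paralog gene rfs-1 had 210 against 10 (60.4, 32.2 to 128), and its sense reads, which it may share with fbxl-1 on the same strand, numbered 524 against 1. The galectin gene lec-3 had 194 against 17 (32.8, 20.0 to 57.5) and the microtubule regulator gene rmd-1 247 against 25 (28.4, 18.8 to 44.7). Among the other classes, the snoRNA C03B8.5, which overlaps lin-13, had 246 against 9 sense reads (78.6, 40.7 to 174), and the splice leader RNA sls-2.9 had 1158 against 79 (42.1, 33.5 to 53.6), and 1671 against 43 without UV. Y116A8C.10 (250 against 11) and C06G1.1 (197 against 12) completed the 12.

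The most depleted genes were well read in total RNA and nearly absent from the bound library. Antisense reads were 0 bound against 4086 total for T24H10.5, 0 against 3895 for B0250.8 and 0 against 3639 for Y71A12B.10. The F-box gene fbxb-97 had 0 against 3396, the linker histone gene his-24 0 against 3340, sdz-26 0 against 2928 and F22H10.4 0 against 2441. Several of them were not empty without UV, where the bound library held 67 antisense reads of T24H10.5, 127 of fbxb-97, 197 of his-24 and 236 of sdz-26. The others of the 12 were the microRNAs mir-55 (1 against 9993), mir-229 (0 against 3503) and mir-236 (0 against 2982) and the mitochondrial genes MTCE.21 (0 against 3907) and ND1 (0 against 2650).

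Lists of known small RNA targets and pathway genes were counted among genes with at least 20 reads over both libraries. Over all genes at that minimum 4.79% were enriched and 90.2% depleted on the strand measured. Among protein-coding genes, 4.38% were enriched and 93.7% depleted on the antisense strand, with a median log2 ratio of −5.14. A member with under 242 total reads could hardly be called other than depleted when it was at 0 in the bound library, and shares of depleted members near 93.7% are those of genes at large. Of 16 ERGO-1 targets found in the files, 5 had enough antisense reads, and all 5 were at 0 in the bound library against 689 total reads over the list, 1 of them with 242 or more. That one, C18D4.6, had 0 against 361, linc-22 0 against 146 and E01G4.5 0 against 50. Of 5 germline targets of the WAGO Argonautes all 5 were depleted, with 234 reads against 5388. These 234 lay on bath-45, with 114 against 3072 (9.38-fold lower, 7.78 to 11.4), and F15D4.5, with 120 against 1846 (5.35-fold lower, 4.45 to 6.49).

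Genes of the pathway itself were also measured as siRNA targets. Of 9 nuclear RNAi genes 1 was enriched and 7 depleted. The enriched one was nrde-2, a partner of NRDE-3 in the nucleus, with 295 against 358 antisense reads (2.37, 2.02 to 2.77). That interval does not allow for the large steps of the bound library, and their part in this ratio was not tested. The germline nuclear Argonaute gene hrde-1 had 0 against 552, and nrde-1 and nrde-4 had 0 against 79 and 0 against 35. Of 15 Argonaute genes 0 were enriched and 15 depleted, nrde-3 the single one of them with a bound read. Of 24 genes of RNA-dependent RNA polymerases, Dicer, the ERI complex and the mutator complex 1 was enriched and 23 were depleted. The enriched one was rde-10, with 87 against 18 (13.9, 8.29 to 24.5). Its total reads lay below the minimum for list members, so rde-10 passed that minimum through its bound reads. Those bound reads were near 84, the median for a gene read antisense there, and the interval does not allow for such steps. Among the depleted genes was the helicase gene eri-6, with 0 against 2220. Of 27 genes of rRNA synthesis and processing, all had 0 bound reads against 2882 total over the list, 2 of them with 242 or more, the nuclear exonuclease gene xrn-2 (0 against 477) and the RNA polymerase I subunit gene rpoa-2 (0 against 249). The 25 ribosomal protein genes had 0 against 1315, and none reached 242 total reads, so their antisense level in the bound library could not be judged at this depth. Of the depleted members, 5 of 15 Argonaute genes, 3 of 23 genes of the polymerase, Dicer, ERI and mutator list and 2 of 7 nuclear RNAi genes reached it.

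Lists of stress and developmental genes had 1 enriched member each, apart from the histones. Of 40 DNA damage genes 1 was enriched, the poly(ADP-ribose) polymerase gene parp-2, with 69 against 61 antisense reads (3.25, 2.27 to 4.67), and 39 were depleted, among them the checkpoint kinase gene chk-2 (3 against 603) and atm-1 (0 against 322). Of 15 heat shock and chaperone genes 1 was enriched and 13 depleted. The enriched one was hsp-3, a chaperone of the endoplasmic reticulum, with 223 against 73 (8.78-fold). Of 29 maternal and germ plasm genes 1 was enriched, mex-1, with 108 against 52 (5.97, 4.25 to 8.48), and 28 depleted. Of 9 cuticle collagen genes 1 was enriched, dpy-17, with 157 against 197 (2.29, 1.85 to 2.84), and 8 depleted. The histones had 7 of 60 enriched and 41 depleted, with his-32, a gene for histone H3, at 130 against 42 (8.90, 6.24 to 12.9). Of the 7 enriched, 6 had under 50 total reads and 5 had under 50 bound reads. Histone genes are near-identical copies whose reads may be shared, and the 7 are not independent. The enriched members of these lists had 34 to 223 bound antisense reads. Depleted members with 242 or more total reads numbered 2 of 39 DNA damage genes, 0 of 13 heat shock and chaperone genes, 2 of 28 maternal genes, 1 of 8 collagens and 2 of 41 histones.

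The sense strand of protein-coding genes gave a different distribution. Of 4466 genes with 50 or more sense reads, 2588 (57.9%) were enriched and 1368 (30.6%) depleted, with a median log2 ratio of 1.75, and 939 were at 0 in the bound library. This depended on the minimum, since at 20 or more reads the median was −0.50, with 41.9% enriched and 47.6% depleted. Among genes annotated with 1 transcript, the median gene read sense in the bound library had 84 reads. Genes could thus pass the minimum of 50 through their bound reads alone. The acetyl-CoA carboxylase gene pod-2 had 28296 sense reads against 614 (26036 against 197 CPM, ratio between 122 and 144), and 27015 in the bound library without UV. The Hsp70 paralogs F44E5.4 and F44E5.5 had 12050 against 961 (ratio between 33.7 and 38.5) and 12682 against 991 (36.8, 34.5 to 39.3). They are neighbours of near-identical sequence whose reads cannot be told apart with certainty. The spectraplakin gene vab-10 had 11191 against 2613 (ratio between 11.8 and 12.8). All 4 were also high in the bound library without UV, at 18888 to 27015 sense reads.

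The lists on the sense strand were counted at 20 or more reads, where 41.9% of all protein-coding genes were enriched and 47.6% depleted. The Argonautes had 9 of 17 enriched and 6 depleted, with ergo-1 at 301 against 305 reads (2.84, 2.41 to 3.34). The polymerase, Dicer, ERI and mutator genes had 10 of 20 enriched and 8 depleted, among them mut-16, the scaffold of mutator foci, with 1179 against 163 (20.8, 17.6 to 24.6), mut-14 with 443 against 12 (106, 60.1 to 207) and Dicer, dcr-1, with 349 against 187 (5.36, 4.48 to 6.44). Ribosomal protein genes had 10 of 75 enriched and 45 depleted, with rps-3A at 3939 against 732 (15.5, 14.3 to 16.8) and rpl-15 at 208 against 978 (0.611, 0.524 to 0.711). Heat shock and chaperone genes had 10 of 19 enriched and 4 depleted, with the myosin chaperone gene unc-45 at 2058 against 169 (35.0, 29.9 to 41.2). Collagens had 17 of 59 enriched and 30 depleted, with col-65 at 4317 against 71 (175, 138 to 224). DNA damage genes had 11 of 36 enriched and 21 depleted, with the ATR kinase gene atl-1 at 299 against 90 (9.55, 7.52 to 12.2).

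The microRNAs were low in the bound library, and unevenly so. Of 79 with 50 or more reads, 11 (13.9%) were enriched and 59 (74.7%) depleted, and 30 had 0 bound reads. The most-read microRNA of the bound library was mir-58.1, a relative of the fly microRNA bantam, with 19507 bound and 40958 total reads, or 17949 and 13113 CPM, a ratio of 1.37 (1.35 to 1.39) that passed neither bound. Its family members mir-81 and mir-82 were depleted, mir-81 with 6970 against 160022 (7.99-fold lower, 7.80 to 8.18) and mir-82 with 1140 against 229753 (70.1-fold lower, 66.2 to 74.4). The mir-58 family as a whole was 5.42-fold lower (5.36 to 5.49) with a median log2 ratio of −2.66, which became 0.50 relative to microRNA reads. Members of 1 family with the same seed were thus found with the pull-down at ratios from 0.0143 to 1.37. Without UV mir-58.1 had 92145 bound and 12448 total reads.

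The embryonic mir-35 family was 44.5-fold lower in sum (42.8 to 46.3), with 7 of 8 members depleted and a median log2 ratio of −3.36. Its most-read members mir-35 and mir-40 had 325 against 152275 (163-fold lower, 146 to 182) and 941 against 115842 (42.8-fold lower, 40.2 to 45.7). The exception was mir-41, with 198 against 211 reads (2.70, 2.21 to 3.29), the least-read member in the total library. The bound reads of the 8 members spanned 73 to 941, while their total reads spanned 211 to 152275. The mir-51 family was 7.53-fold lower in sum (7.28 to 7.79), with 5 of 6 members depleted and a median of −2.72, which became 0.44 relative to microRNA reads. In it mir-52 had 1734 against 14375 (2.88-fold lower, 2.74 to 3.03) and mir-55 1 against 9993 reads. All 4 of the mir-64 group were depleted, with a median of −3.49 and mir-64 at 283 against 4334 (5.33-fold lower, 4.72 to 6.03). Of all 93 microRNAs with 20 or more reads, 73 (78.5%) were depleted, with a median log2 ratio of −4.59. Counts of depleted members in these small families were thus near the share of microRNAs at large, and the family medians were less low. The tissue-restricted mir-57, among the most-read of the total library, had 2730 against 224460 (28.6-fold lower, 27.5 to 29.7).

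Of the 11 enriched microRNAs, 3 had under 50 total reads and passed the minimum through their bound reads, and none had more than 211. The part of the bound library's steps in these calls was not tested. The let-7 gene, whose microRNA regulates late larval fates, had 477 against 154 reads (8.90, 7.41 to 10.7). Its entry spans 1732 nt (X:14743590-14745321), where the other microRNA entries span 56 to 115 nt, so these reads are not those of the let-7 microRNA alone. The related mir-48 had 0 against 38. The most-read of the 11 was mir-63, with 487 against 104 (13.5, 10.9 to 16.8), followed by let-7, mir-41, mir-1820, mir-254, mir-2214, mir-76, mir-60, mir-67, mir-71 and mir-255. Of these, mir-255 had 50 bound reads against 1. The bound library without UV held no read of mir-2214, mir-76, mir-67, mir-71 or mir-255.

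**Figure D5:**
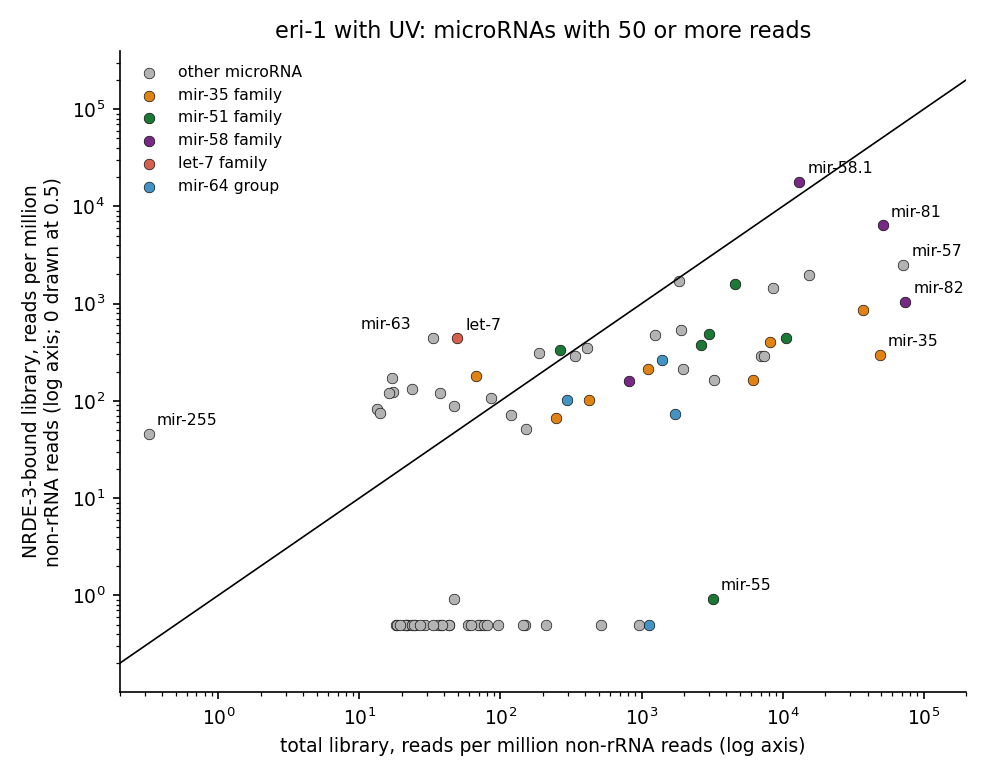
Levels of the 79 microRNAs with at least 50 reads over both libraries, in reads per 1000000 non-rRNA reads on log axes, in the total (horizontal) and NRDE-3-bound (vertical) libraries of eri-1 with UV, coloured by family, with the line of equality. Most lie below the line, with mir-58.1 (13113 total, 17949 bound) just above it and let-7 and mir-63 farther above. Relative to microRNA reads, the medians of the mir-51 and mir-58 families change sign.

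Among the remaining classes, 22 of 88 snoRNAs were enriched and 48 depleted, 3 of 54 snRNAs enriched and 34 depleted, and 2 of 225 tRNAs enriched and 175 depleted. Of 92 piRNAs 8 were enriched and 81 depleted, with 81 at 0 bound reads, and of 109 transposon genes 1 was enriched and 100 depleted. The depleted shares of piRNAs and transposon genes were near that of all genes. A 0 in the bound library against under 242 total reads says little. Of 28 mitochondrial genes 25 were depleted, also near the share of all genes. Among them were the large mitochondrial rRNA MTCE.33 at 1237 against 68411 reads (19.2-fold lower, 18.2 to 20.4) and the tRNA MTCE.9 at 502 against 44688 (28.4 to 33.9 times lower).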

How the data were processed

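Small RNA of embryos was sequenced on an Illumina HiSeq instrument, per the labels' protocols. The deposited files hold whole-number counts of sense and antisense reads per transcript, made by the authors. Bowtie2 is named in the submitters' processing notes. Its version, the genome build, the annotation and the treatment of reads with several matches are not given in the sources used here. Entries, 56374 in number, were summed to 45510 genes, of which 44852 matched Ensembl annotation of WBcel235 by gene ID and 658 did not. Coordinates come from that match. Protein-coding entries annotated as pseudogenes were counted as pseudogenes. Lines cut short before the gene name, 3 in each library (53 and 14 reads), were left out. The members and gene lists were chosen with earlier results of these data known.

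Ratios have exact conditional binomial (Clopper-Pearson) 95% intervals and shares exact binomial ones (scipy 1.17.1). They cover counting error only. A count of 0 allows 3 reads by counting error, or 2.76 CPM of the bound and 0.960 CPM of the total non-rRNA reads. Each group is 1 library, so no p-value was computed. Names were drawn from all rRNA genes, the 12 most enriched and 12 most depleted genes with 200 or more reads, genes with 1% or more of the non-rRNA reads, the 3 most-read microRNAs of each library and the 3 most-read members of each list. Some genes under this rule, mir-228 and mir-51 among them, are not described. C09G9.1, the enriched list members outside that rule, mir-63, mir-41 and the other enriched microRNAs were named after their values were seen. The calling rule was tested on simulated Poisson counts, which lack the large steps of the bound library. Scalings by DESeq2 1.42.0 and edgeR 4.0.16 were tried as alternatives.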

Additional observations from a re-analysis of the deposited data

Results flagged for a closer look

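Antisense reads of 26S, 18S and 5S rRNA had bound-over-total ratios in opposite directions with and without UV, each from 1 library a group. With UV the ratio was 0.568 for 26S, 0.248 for 18S and 0.135 for 5S, all below 1. Without UV it was 14.2, 8.96 and 7.94, all above 1, the last from 64 bound against 8 total reads. The difference was not tested across cultures, and the intervals of the ratio of ratios, 0.0339 to 0.0472 for 26S, cover counting error alone. Both bound libraries of the UV experiment detected few genes, 5443 with UV and 5098 without, and their part in the difference was not tested. Per 1000000 non-rRNA reads the 26S ratios with and without UV were 1.69 and 11.3, on the same side of 1. Those of 18S were 0.736 and 7.17 and those of 5S 0.400 and 6.35, still on opposite sides of 1.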

How the results depend on the processing

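The order of the libraries in rRNA depended on the scaling. Relative to assigned reads, the log2 ratio of every gene rose by 1.57 with non-rRNA reads, 4.73 with microRNA reads, 2.06 with DESeq2 size factors and 1.86 with edgeR TMM factors. Under these 4 scalings, in that order, the antisense ratio of 26S was 1.69, 15.1, 2.37 and 2.06, that of 18S 0.736, 6.58, 1.03 and 0.898, that of 5.8S 0.979, 8.75, 1.37 and 1.19, and that of 5S 0.400, 3.57, 0.561 and 0.488. The rRNA-strand ratio of 26S was 5.01, 44.8, 7.03 and 6.11, that of 18S 3.13, 28.0, 4.39 and 3.82, that of 5.8S 0.623, 5.57, 0.875 and 0.761, and that of 5S 1.39, 12.5, 1.96 and 1.70. Strand shares use none of these. With the minus-strand entries added, a choice made after seeing the data, the antisense ratios were 0.682 for 26S and 0.270 for 18S and those of the rRNA strand 1.49 and 1.04, and with all 5S copies the antisense ratio was 0.439.

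Enriched genes numbered 296, and 173 with assigned reads, 723 with microRNA reads, 92 at 200 or more reads, 2496 with both strands summed and 2622 on the opposite strand. Depleted genes numbered 3636, and 1695 with microRNA reads, 6521 at 20 or more reads, 897 at 200 or more, 7737 at 1 or more and 1428 on the opposite strand. Dividing bound counts by 84, the median count of a gene with antisense reads there, left 94 enriched and 142 depleted, a choice made after seeing the data. Enriched genes were then 39.8% of those called, against 7.53%. They were 29.9% with microRNA reads, 37.1% with both strands and 64.7% on the opposite strand.

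With microRNA reads, the ratio of piRNAs was 1.03 (0.962 to 1.09), and ratios above 1 were found for snRNAs (3.95), tRNAs (2.83), snoRNA sense (8.02) and antisense (1.76) reads, lincRNA sense reads (3.52), splice leader antisense reads (1.42) and antisense reads of protein-coding genes (1.58), pseudogenes (1.31) and ncRNAs (3.16). With assigned reads, sense reads of transposons (0.581) and ncRNAs (0.728) went below 1, and snoRNA sense reads were at 1.26 with DESeq2 and 1.09 with TMM factors. Median log2 ratios of the mir-51 and mir-58 families became 0.44 and 0.50 with microRNA reads, and that of the let-7 family, of 2 members, 2.36, as well as 3.15 at 50 or more reads and 0.44 with 3 reads added. No paired analysis was possible because each group is 1 library, and for the same reason no replicate could be left out.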
